A study of Mus musculus with 188 samples.

Results

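Heme carried by hemopexin was compared with heme carried by albumin in 20 RNA sequencing libraries, 10 for each carrier, out of 188 libraries in the series. The libraries were chosen by their treatment labels: all of the first batch that had received 200 µM heme-hemopexin (hemeHpx) or 200 µM heme-albumin for 24 h. The 10 control libraries of the same batch, kept for 24 h without heme, gave the baseline. Each library was made from poly(A) RNA of coronal brain slice cultures, which hold neurons, glia, microglia and vessels together, cut 150 µm thick from wild-type C57BL/6J mice of both sexes aged 6 to 8 weeks and exposed on day 7 of culture. Heme-albumin was hemin bound to human albumin, and hemeHpx was hemin bound to a 1.1-fold molar amount of human hemopexin. The sample titles of the hemeHpx group say heme-haptoglobin, whereas the treatment labels, the library names and the study's methods say hemopexin, and hemopexin is the name used here. The batch has no library with hemopexin alone or albumin alone, so an effect of the carrier protein itself and an effect of how it presents heme cannot be told apart.

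Heme freed from hemoglobin after a hemorrhage is taken up by cells and opened by heme oxygenase into biliverdin, carbon monoxide and iron. Heme also removes the repressor BACH1 from DNA, and the electrophilic stress it causes releases the activator NRF2 from KEAP1, so that genes for glutathione synthesis, NADPH supply and iron export are transcribed. Albumin holds heme loosely and gives it up to membranes, while hemopexin, the plasma protein with the highest known affinity for heme, holds it and hands it to the endocytic receptor LRP1.

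The total of counted reads per library was 13421393 to 28939450 with heme-albumin, 15244938 to 44199060 with hemeHpx and 11038484 to 29576977 in the control, and the hemeHpx library was the deeper of 8 of 10 pairs. Pairs here are a hemeHpx and a heme-albumin library that carry the same code in their names, a letter and a number such as M4; there are 9 codes, 1 of them used for a pair of libraries in each group, and what a code stands for is not stated. Choroid plexus RNA differed widely between libraries of one group. The summed level of 12 choroid plexus genes split the libraries into a low and a high set with a gap around 600 CPM (counts scaled to a library of 1000000): it exceeded that value in 6 of 10 hemeHpx, 2 of 10 heme-albumin and 3 of 10 control libraries, and ranged from 311 to 3018, 265 to 2174 and 306 to 5900.1 CPM in these groups. The transthyretin gene Ttr, one of these markers, had a median of 246 CPM with hemeHpx, 0.317 CPM with heme-albumin and 0.394 CPM in the control. Where it changes a result, the value from a fit with the choroid plexus level as a term, added after the data were seen, is given beside it. A further number in the library names was higher for hemeHpx than for heme-albumin in 10 of 10 pairs. What it counts is not stated, and the carrier and this number cannot be told apart. Neuron, astrocyte, oligodendrocyte and microglia markers were all detected in every group. In bulk tissue, fewer cells of a type and less RNA per cell cannot be told apart.

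Many genes differed between the carriers, the falls with hemeHpx mostly by small amounts, and most of the larger changes were rises. Of 15198 genes tested with edgeR's quasi-likelihood test, 4317 (28.4%) had an adjusted p under 0.05 between hemeHpx and heme-albumin, with 2117 (13.9%) higher and 2200 (14.5%) lower with hemeHpx. With the choroid plexus term the test called 2447 genes, 1233 higher and 1214 lower. A change of at least 1.5-fold was seen in 748 of the higher and 98 of the lower genes. Against the control, 2004 genes (13.2%) were called with heme-albumin, 1005 higher and 999 lower. With hemeHpx 1600 genes (10.5%) were called against the control, 697 higher and 903 lower. The counts of list members against the control given below are to be read beside these numbers. The count of hemeHpx against the control changed most with the processing. Its log2 fold changes had a rank correlation of 0.55 with the genes' GC content (a description across genes). This correlation was 0.25 between the carriers and 0.25 between heme-albumin and control. After correction for GC content and gene length (termed GC correction below) 167 genes were called between hemeHpx and control. Leaving out the libraries of 1 code gave 2804 genes between the carriers without M4, 2122 without W4 and 2996 to 4833 without each of the others. Between heme-albumin and control it gave 1237 without M2 and 1208 without W1. Between hemeHpx and control the number was 24 without M1, 20 without M3, 28 without W3, 620 without M4, 430 without M5, 789 without W5 and 4119 without M2, and the counts below that use calls of hemeHpx against the control share this dependence. Values named below as log2 fold changes between the carriers, or given without a scale beside a gene, are log2 fold changes of hemeHpx over heme-albumin, so that a negative value is lower with hemeHpx. All 10 libraries of one carrier lay above or below all 10 of the other for 1.52% of the genes tested.

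Genes that respond to heme lay nearer to the control with hemeHpx, in both directions. To choose them outside the libraries compared, heme-responsive genes were taken from 10 other libraries of the batch, exposed to 400 µM heme-albumin, against the control, where 3103 of 14875 genes tested (20.9%) were called. Of the 1646 genes raised at 400 µM, 720 were lower with hemeHpx than with heme-albumin at 200 µM and 9 were higher, against 14.5% and 13.9% of all genes tested. Of the 1455 genes lowered at 400 µM, 583 were higher and 4 were lower. The median difference between hemeHpx and heme-albumin was -0.15 on the log2 scale for the raised genes, 0.20 for the lowered genes and 0.01 for the other 12097 genes. With the choroid plexus level as a term 640 of the raised genes were lower and 496 of the lowered genes higher, and after GC correction 895 and 764. The choice used the 10 control libraries and libraries with the same name codes, but no library of either 200 µM group.

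Among the 720 raised genes that were lower with hemeHpx, 681 did not differ from the control by the test, 28 were still above it and 11 were below it. For 585 of them the 95% interval of the difference between hemeHpx and control lay wholly within 0.32 of 0 on the log2 scale. The 400 µM-lowered genes gave 560, 7 and 16 by the same reading, with 304 intervals within that margin. A further 165 raised genes were above the control with hemeHpx and not called between the carriers, a number that was 21 after GC correction. Of the 37 genes raised at the lower dose of 50 µM, 34 were lower with hemeHpx than with heme-albumin at 200 µM, and 19 of these 34 were still above the control.

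**Figure D1:**
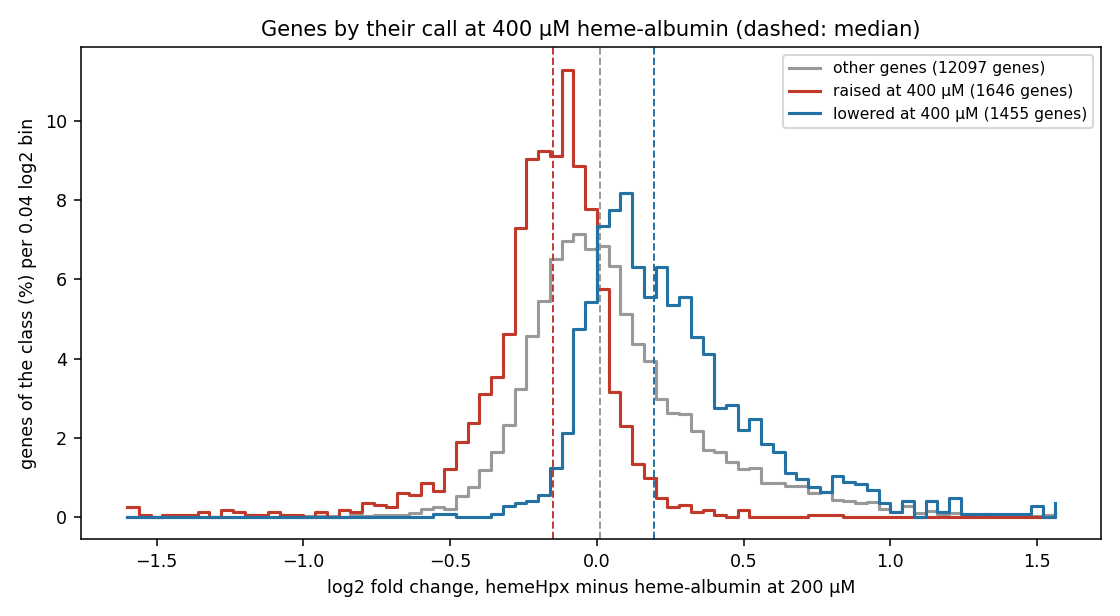
Distribution of the log2 fold change between hemeHpx and heme-albumin at 200 µM (x axis) as the percentage of each class per bin (y axis), for genes raised (red) or lowered (blue) by 400 µM heme-albumin in other libraries and for all other genes (grey); values past the ends of the axis are in the outermost bins and dashed lines mark the medians. The red curve lies to the left of the grey one (median -0.15) and the blue curve to the right (median 0.20).

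Targets of NRF2 were lower with hemeHpx than with heme-albumin, and some stood above the control. Of 32 targets, 30 were above the control with heme-albumin, 25 were lower with hemeHpx than with heme-albumin and none was higher. Their median log2 fold change over the control was 0.58 with heme-albumin and 0.24 with hemeHpx, and the median between the carriers was -0.37, against 0.01 over all genes. With hemeHpx 17 of 32 were still above the control, 9 after GC correction. With 1 code left out this count was 2 without W3, 3 without M3, 4 without M1, 7 without M4, 9 without M5 and 11 without W5. The count of targets lower with hemeHpx was 27 with the choroid plexus term and 21 to 25 when the libraries of any 1 library-name code were left out.

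Gclm, the modifier subunit of the enzyme that makes the glutathione precursor, had the smallest p of the list. Its lowest, median and highest levels were 200.4, 228 and 273 CPM under heme-albumin, 115, 133 and 150.5 CPM under hemeHpx and 95.6, 118 and 137 CPM in the control. All 10 hemeHpx libraries lay below all 10 heme-albumin libraries (log2 fold change -0.77 ± 0.06, adjusted p = 1.71e-09), and 6 of them lay within the control range. Against the control Gclm had a log2 fold change of 0.18 ± 0.06, adjusted p = 0.0549 with hemeHpx, and 0.34 with an adjusted p of 2.59e-06 after GC correction. Slc7a11, the cystine importer that feeds the same pathway, had levels of 446, 504 and 689 CPM under heme-albumin, 152, 213 and 326 CPM under hemeHpx and 102, 189 and 220.3 CPM in the control. The carrier groups again did not overlap (log2 fold change -1.26 ± 0.12, adjusted p = 3.18e-08). Ephx1, the microsomal epoxide hydrolase, went from a median of 201 CPM with heme-albumin to 148 CPM with hemeHpx (log2 fold change -0.44 ± 0.04, adjusted p = 1.5e-08), and the control median was 135 CPM. Txnrd1 (thioredoxin reductase), Srxn1 (sulfiredoxin) and G6pdx (the first enzyme of the NADPH-making pentose phosphate pathway) fell by 0.52, 0.82 and 0.42 on the log2 scale, each without overlap between the carriers.

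Srxn1 was above the control with hemeHpx (log2 fold change 0.43 ± 0.09, adjusted p = 0.0125), a call lost without code W3 (adjusted p up to 0.0713). Nqo1, a quinone reductase, stood at 16.2, 19.9 and 22.5 CPM under heme-albumin, 12.3, 15.1 and 17.9 CPM under hemeHpx and 8.46, 10.6 and 13.4 CPM in the control. It was lower with hemeHpx than with heme-albumin (log2 fold change -0.41 ± 0.08, adjusted p = 0.00085), with overlapping ranges, and higher than in the control (log2 fold change 0.45 ± 0.08, adjusted p = 0.00698), and both held after GC correction and without any 1 code (adjusted p against the control up to 0.0464). Gstm1, a glutathione transferase, had medians of 387, 298 and 267 CPM in the same order (log2 fold change -0.36 ± 0.07, adjusted p = 0.000813 between the carriers). Against the control its adjusted p of 0.0472 for hemeHpx became 0.161 with GC correction, and that call was lost without any of 8 codes (adjusted p up to 0.133). Members with no call between the carriers were Gsta3, another glutathione transferase (log2 fold change -0.37, adjusted p = 0.185), and Mgst1 (-0.10, adjusted p = 0.202), which did not differ from the control with heme-albumin either (adjusted p = 0.333). Of the regulators, Nfe2l2, which encodes NRF2 itself, was lower with hemeHpx (log2 fold change -0.37 ± 0.08, adjusted p = 0.00185) without a call for heme-albumin against the control (adjusted p = 0.185). The small MAF partner gene Maff was lower as well (log2 fold change -0.41 ± 0.14, adjusted p = 0.0285), but this call was lost without code M5, W4 or W5, with an adjusted p of up to 0.0707. Keap1 and Bach1 had log2 fold changes of -0.04 and -0.03 between the carriers (adjusted p = 0.66 and 0.781).

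NRF2 acts through the antioxidant response element, and its core TGACNNNGC was looked for on both strands of 300-base promoters (250 bases before to 50 after the annotated start). Promoters of 27 of the 32 targets were at hand in the RefSeq table. Of these genes 11 (40.7%) held the core, as did 16.8% of the 11459 tested genes with a promoter. A gene with several promoters was counted if any of them held the core. Other lists held it too: 7 of 21 ATF4 targets (33.3%), 2 of 7 metallothionein and zinc genes (28.6%) and 3 of 14 cholesterol genes (21.4%). Proteasome and homeostatic microglia genes had 5 of 27 (18.5%) and 2 of 12 (16.7%). A match is a string of letters, not a site that NRF2 is shown to bind. The 4 NRF2 targets with the smallest p between the carriers that held the core are printed 5′ to 3′ in the direction of transcription (RefSeq, build GRCm38.p6). Txnrd1 has 3 such promoters, and the promoter with the most matches is shown. The core or its reverse complement is in capitals.
Gclm (chr3:122245307-122245606, plus strand): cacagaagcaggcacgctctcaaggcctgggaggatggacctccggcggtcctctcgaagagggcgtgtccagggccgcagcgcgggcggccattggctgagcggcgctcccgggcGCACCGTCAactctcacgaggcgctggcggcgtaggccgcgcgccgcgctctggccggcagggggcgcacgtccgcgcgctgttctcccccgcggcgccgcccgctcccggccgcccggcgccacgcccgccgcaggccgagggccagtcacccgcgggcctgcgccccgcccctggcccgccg
Txnrd1 (chr10:82858956-82859255, plus strand): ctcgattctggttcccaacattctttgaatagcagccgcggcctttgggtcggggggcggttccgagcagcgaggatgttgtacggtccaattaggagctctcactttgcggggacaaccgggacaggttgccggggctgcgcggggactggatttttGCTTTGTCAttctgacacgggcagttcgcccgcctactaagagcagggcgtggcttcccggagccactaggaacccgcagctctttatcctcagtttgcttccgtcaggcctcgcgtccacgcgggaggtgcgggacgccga
Srxn1 (chr2:152105274-152105573, plus strand): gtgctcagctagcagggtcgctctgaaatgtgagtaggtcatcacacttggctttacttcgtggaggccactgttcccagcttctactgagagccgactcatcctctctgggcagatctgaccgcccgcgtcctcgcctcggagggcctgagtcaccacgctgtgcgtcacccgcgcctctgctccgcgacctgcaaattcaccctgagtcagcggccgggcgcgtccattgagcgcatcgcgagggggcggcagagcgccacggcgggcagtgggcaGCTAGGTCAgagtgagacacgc
G6pdx (chrX:74428831-74429130, minus strand): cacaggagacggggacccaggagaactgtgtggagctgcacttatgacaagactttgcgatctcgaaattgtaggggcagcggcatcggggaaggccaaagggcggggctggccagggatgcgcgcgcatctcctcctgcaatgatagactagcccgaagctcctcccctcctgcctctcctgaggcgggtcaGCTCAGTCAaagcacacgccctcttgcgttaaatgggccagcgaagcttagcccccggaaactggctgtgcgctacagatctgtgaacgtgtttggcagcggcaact
In these 4 promoters the capitals begin 134, 92 and 57 bases before the start for Gclm, Txnrd1 and G6pdx and 28 bases after it for Srxn1. All 4 genes were lower with hemeHpx in 10 of 10 pairs, but they were chosen by their p between the carriers, so this says nothing about the core. Ephx1 and Slc7a11, whose promoters did not hold the core, were lower with hemeHpx as well. The other motifs looked for were the ATF4 element TGATGNAAT, held by 2 of 21 ATF4 targets and 0.593% of tested genes, the sterol element TCACNCCAC, held by 1 of 14 cholesterol genes and 1.42%, and the metal element core TGCACNC, held by 4 of 7 metallothionein and zinc genes and 15.6%.

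**Figure D2:**
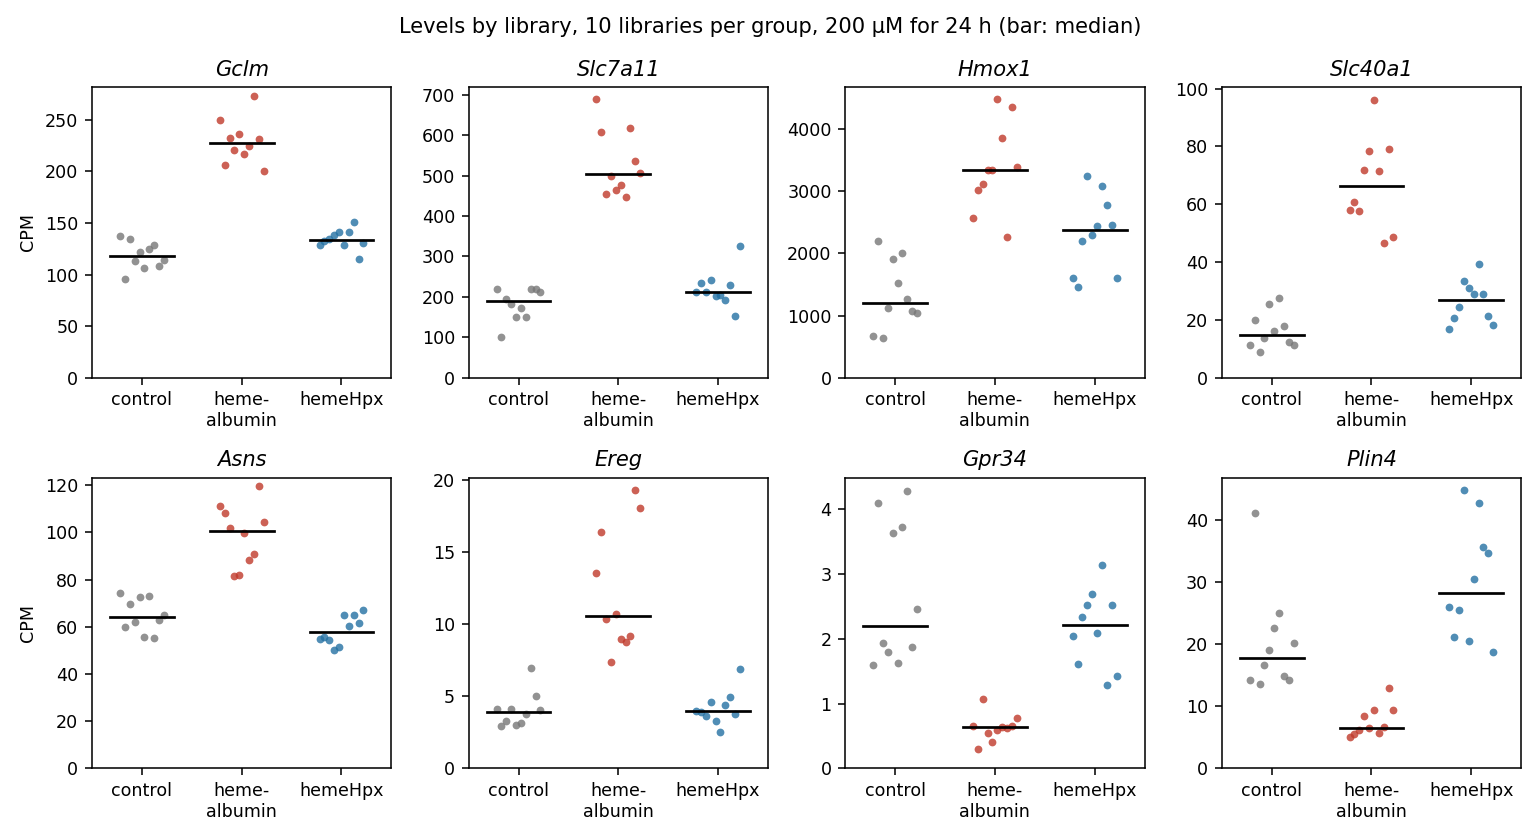
CPM (y axes, from 0) of 8 genes in each library (points) with the median (bar) for the control, 200 µM heme-albumin and 200 µM hemeHpx, 10 libraries each. Gclm, Slc7a11, Slc40a1, Asns and Ereg are lower with hemeHpx than with heme-albumin and Gpr34 and Plin4 higher, with no overlap between the carriers, while the Hmox1 points of the carriers overlap between 2256 and 3246 CPM.

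Among the genes that break down heme and move iron, Hmox1, Slc48a1 and Slc40a1 were lower with hemeHpx than with heme-albumin. Hmox1, the inducible heme oxygenase, stood at 2256, 3341 and 4480.2 CPM under heme-albumin, 1462, 2369 and 3246 CPM under hemeHpx and 646, 1198 and 2192 CPM in the control. The ranges of the carriers overlapped, and Hmox1 was lower with hemeHpx by a small margin (log2 fold change -0.54 ± 0.19, adjusted p = 0.0358), a call lost without code M5, W1, W4 or W5 (adjusted p up to 0.0731). Its level with hemeHpx was above the control (log2 fold change 0.79 ± 0.19, adjusted p = 0.0246), a call lost without code M1, M3, M4 or W3 (adjusted p up to 0.0906) and after GC correction (adjusted p = 0.0551). Slc48a1, which carries heme out of the endolysosome, had levels of 281, 414 and 442 CPM under heme-albumin, 296, 305 and 363 CPM under hemeHpx and 178, 246 and 289.6 CPM in the control. All 10 hemeHpx libraries were above the control range, and 9 of 10 were below the heme-albumin library of their pair (log2 fold change -0.32 ± 0.08, adjusted p = 0.00549). Against the control Slc48a1 was higher (0.44 ± 0.08, adjusted p = 0.00698), also without any 1 code (adjusted p up to 0.0464). Slc40a1, which encodes the iron exporter ferroportin, showed the wider gap: 46.6, 66.1 and 96.1 CPM under heme-albumin, 16.9, 26.7 and 39.2 CPM under hemeHpx and 8.74, 14.9 and 27.5 CPM in the control. The carriers did not overlap (log2 fold change -1.35 ± 0.18, adjusted p = 6.69e-06), and 5 of 10 hemeHpx libraries exceeded the control range. Against the control the log2 fold change was 0.69 ± 0.18, adjusted p = 0.0295, a call lost without code M1, M3, M4 or W3 (adjusted p up to 0.0997).

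Alas1 and Tfrc, which cells lower when heme or iron is ample, were higher with hemeHpx. Alas1, the first enzyme of heme synthesis, which heme represses, had levels of 32.7, 34.98 and 40.6 CPM under heme-albumin, 47.4, 54.8 and 73.4 CPM under hemeHpx and 63.5, 67.4 and 73.9 CPM in the control. The carriers did not overlap, and Alas1 was higher with hemeHpx (log2 fold change 0.64 ± 0.06, adjusted p = 1.5e-08) yet below the control (log2 fold change -0.28 ± 0.06, adjusted p = 0.0164, and after GC correction adjusted p = 0.00322), a call lost without code M1 or M3 (adjusted p up to 0.0638). Urod, a later enzyme of the pathway, differed by 0.15 (adjusted p = 0.026), and this call was lost with GC correction (adjusted p = 0.0943), with the choroid plexus term (adjusted p = 0.101) and without code M2, M5, W3 or W4 (adjusted p up to 0.0735). Tfrc, the transferrin receptor, whose mRNA decays when iron is ample, stood at 44.8, 70.6 and 99.6 CPM under heme-albumin, 71.9, 85.7 and 106 CPM under hemeHpx and 105, 131 and 159.8 CPM in the control. It was higher with hemeHpx than with heme-albumin (log2 fold change 0.28 ± 0.10, adjusted p = 0.0427), a call lost without any of 6 codes (adjusted p up to 0.112), and lower than in the control (log2 fold change -0.61 ± 0.10, adjusted p = 0.00472), the latter also without any 1 code (adjusted p up to 0.0372). The ferritin genes Fth1 and Ftl1, which have many processed copies that can share reads, had log2 fold changes of -0.20 and -0.01 between the carriers (adjusted p = 0.205 and 0.978). Ncoa4, the receptor that delivers ferritin to the lysosome, was lower with hemeHpx (-0.24, adjusted p = 0.0141) and Slc39a14, a zinc and iron importer, higher (0.18, adjusted p = 0.0128). The heme exporter gene Flvcr1 and the heme-binding protein gene Hebp1 were higher, by 0.41 and 0.33 (adjusted p = 0.00398 and 0.00748), with no call for heme-albumin against the control (adjusted p = 0.21 and 0.277). The iron handling list had 3 members higher and 4 lower of 20, with a median of -0.03, shares close to the 13.9% and 14.5% of all genes. With 1 code left out the higher count was 1 without M4 or W3 and the lower count 2 without M1, M4 or W3. The heme breakdown and transport list had 4 higher and 4 lower of 12, with a median of 0.09, the higher count being 2 without M4, W3 or W4 and 2 with the choroid plexus term, and the lower count 1 without W4 and 2 without M5, W1 or W5. Heme synthesis had 2 of 8 higher and 0 lower, the higher count being 1 without M2, M5, W3 or W4 and 1 with the choroid plexus term.

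The batch also holds heme-albumin at 12.5, 50 and 400 µM, which gives a scale on which the hemeHpx levels can be read side by side, with all 60 libraries of the batch scaled together. The median of Gclm rose from 119 CPM in the control to 150.2, 186, 227 and 248 CPM at 12.5, 50, 200 and 400 µM heme-albumin, and 200 µM hemeHpx gave 134 CPM, under the value of the lowest dose. Slc7a11 was at 188, 308, 403, 506 and 610.3 CPM along the same doses and at 214 CPM with hemeHpx, also under the lowest dose. Hmox1 ran from 1197 through 1685, 2386 and 3356 to 4062 CPM, and its hemeHpx median of 2379 CPM was beside that of 50 µM. For Tfrc, which fell from 131 CPM to 109, 89.97, 70.7 and 58.2 CPM, the hemeHpx median of 86.1 CPM lay between those of 50 and 200 µM. Medians of 25 of the 32 NRF2 targets were in strict order of the heme-albumin dose. For 3 of these the hemeHpx median was at or under the control median, for 10 between the control and 12.5 µM and for 12, Hmox1, Nqo1 and Srxn1 among them, between 12.5 and 50 µM. None had a hemeHpx median above that of 50 µM. No test was made between the doses and hemeHpx.

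**Figure D3:**
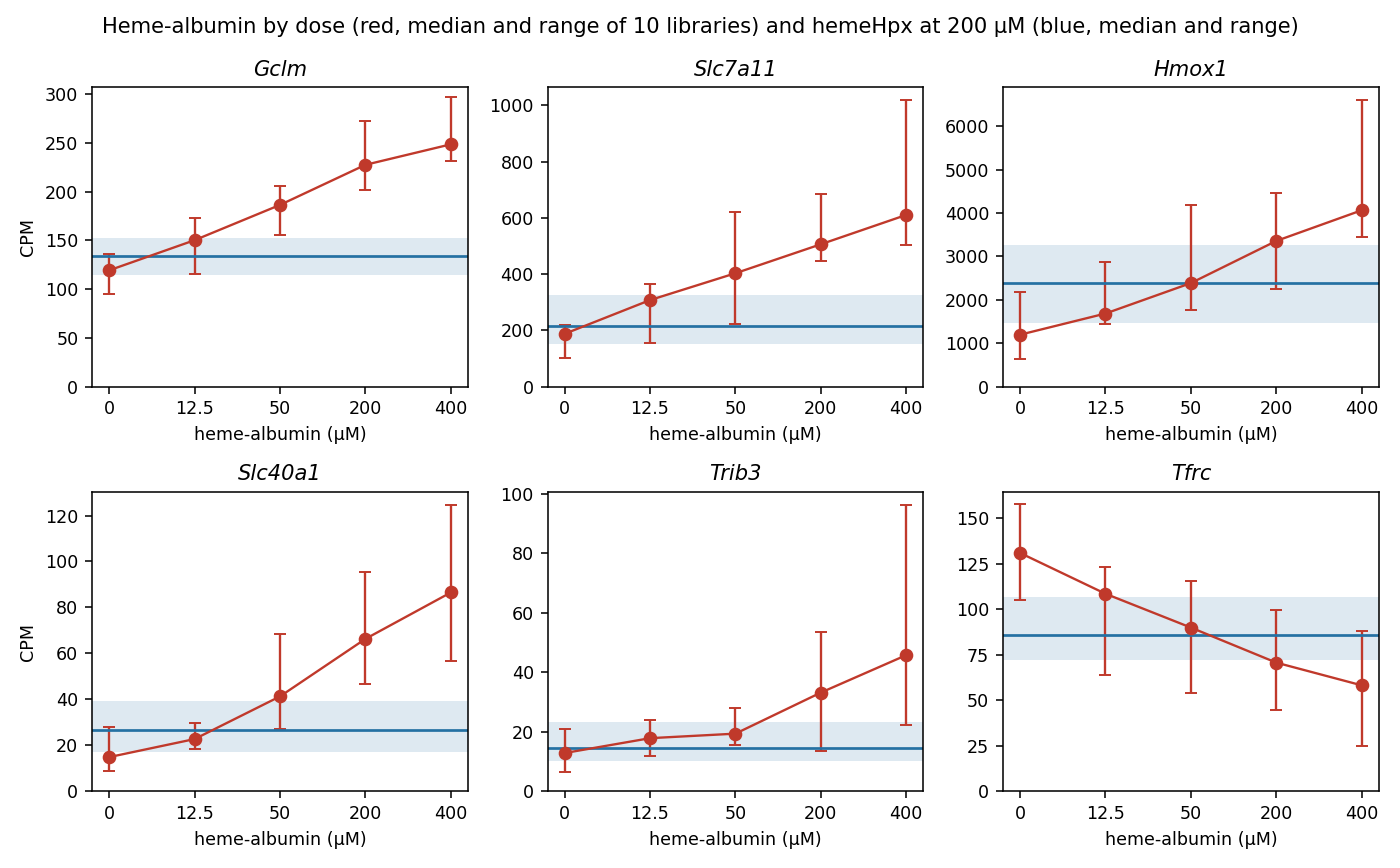
CPM (y axes, from 0) of 6 genes against the dose of heme-albumin in µM (x axes, evenly spaced steps, 0 being the control), as median and range of 10 libraries (red), with the median (blue line) and range (blue band) of 10 libraries with 200 µM hemeHpx. The blue line crosses the red curve under 12.5 µM for Gclm, Slc7a11 and Trib3, between 12.5 and 50 µM for Slc40a1, and near 50 µM for Hmox1 and Tfrc.

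The targets of ATF4, the factor that cells use when amino acids or cystine run short, did not stand above the control with hemeHpx. Of 23 tested targets 17 were lower with hemeHpx than with heme-albumin and none was higher, with a median of -0.57. Heme-albumin had raised 15 of them (median 0.46), and with hemeHpx none was above the control and 2 were below it (median 0.02), these being 0 to 2 above and 0 to 3 below with any 1 code left out. The count of targets lower than with heme-albumin was 19 with the choroid plexus term and 17 to 18 with any 1 code left out. Slc3a2, the heavy chain that partners Slc7a11, had levels of 375, 472 and 576 CPM under heme-albumin, 257, 288 and 323 CPM under hemeHpx and 235, 269 and 292 CPM in the control, without overlap between the carriers (log2 fold change -0.68 ± 0.06, adjusted p = 1.4e-08). Asns, asparagine synthetase, was at 81.6, 101 and 119.7 CPM under heme-albumin, 50.3, 57.8 and 67.2 CPM under hemeHpx and 55.3, 64.1 and 74.4 CPM in the control. Its hemeHpx libraries were all below the heme-albumin libraries (log2 fold change -0.76 ± 0.07, adjusted p = 2.84e-08). Slc7a1, an arginine and lysine importer, fell likewise (log2 fold change -0.78 ± 0.08, adjusted p = 4.6e-08). Trib3, a pseudokinase that restrains ATF4, had medians of 33.2, 14.6 and 12.9 CPM with heme-albumin, hemeHpx and in the control (log2 fold change -1.13 ± 0.20, adjusted p = 0.000197), and the ranges of the carriers overlapped. Chac1, which degrades glutathione, and Ddit3, the stress factor CHOP, were lower as well, with log2 fold changes of -0.96 and -0.61 (adjusted p = 0.000548 and 0.00256), as was Atf4 itself at -0.31 (adjusted p = 0.00673).

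Cth, cystathionine gamma-lyase, which makes cysteine from cystathionine, was among the 10 genes with the largest fall. Its levels were 2.75, 4.11 and 8.101 CPM under heme-albumin, 1.404, 1.92 and 2.28 CPM under hemeHpx and 1.24, 2.69 and 3.398 CPM in the control, and the carriers did not overlap (log2 fold change -1.28 ± 0.18, adjusted p = 1.98e-05). In the whole list of cystine import and glutathione genes 7 of 14 were lower and 3 higher with hemeHpx. The lower members were Gclm, Gclc, Slc7a11, Slc3a2, Cth, Chac1 and Gsr, and the higher ones the glutathione peroxidases Gpx1 and Gpx4 and the 5-oxoprolinase Oplah. The higher count was 1 without M1, M4, W3 or W4. Of the wider list of ferroptosis regulators 5 of 15 were lower and 4 higher, the higher count being 1 without M4 or W3 and 2 without M1, M3, M5, W1 or W4 and 2 with the choroid plexus term.

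Secreted growth factors and early response genes made up much of the largest falls. Areg, encoding amphiregulin, a ligand of the EGF receptor, had levels of 1.3997, 2.14 and 3.73 CPM under heme-albumin, 0.312, 0.706 and 0.943 CPM under hemeHpx and 0.337, 0.649 and 1.104 CPM in the control. No hemeHpx library reached the lowest heme-albumin library (log2 fold change -1.81 ± 0.22, adjusted p = 1.74e-06), and 9 of 10 lay within the control range. Ereg, encoding the related ligand epiregulin, was at 7.405, 10.5 and 19.3 CPM under heme-albumin, 2.55, 3.95 and 6.92 CPM under hemeHpx and 2.93, 3.92 and 6.97 CPM in the control (log2 fold change -1.54 ± 0.18, adjusted p = 1.05e-06), again without overlap. Nrg1, encoding neuregulin, a ligand of the ERBB receptors, was lower, at -0.70 (adjusted p = 0.000647). In all, 6 of 11 EGF family genes were lower and none was higher, with a median of -0.48. One of these, the receptor gene Egfr, was not called between heme-albumin and control (adjusted p = 0.977), and its fall with hemeHpx (-0.68, adjusted p = 0.0424) was lost with the choroid plexus term (adjusted p = 0.204) and without any of 7 codes (adjusted p up to 0.133). The EGF family count was 5 lower with the choroid plexus term, and 5 lower and 2 higher after GC correction. It was 4 lower without M1 or W4, and 6 lower and 1 higher without M2.

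Il11, a cytokine of the IL-6 family, stood at 4.18, 8.83 and 18.4 CPM under heme-albumin, 2.24, 3.36 and 4.37 CPM under hemeHpx and 1.68, 2.29 and 3.61 CPM in the control. It was lower with hemeHpx (log2 fold change -1.59 ± 0.21, adjusted p = 5.28e-06), and the groups overlapped narrowly. The fall was seen in 10 of 10 pairs, where at least 8 were required for a gene to be among the 10 largest falls. Fosl1, an AP-1 subunit, had levels of 12.5, 18.6 and 26.5 CPM under heme-albumin, 5.84, 7.63 and 8.92 CPM under hemeHpx and 4.79, 6.18 and 9.48 CPM in the control. The carriers did not overlap, all hemeHpx libraries were within the control range, and this was the smallest p among the early response genes (log2 fold change -1.39 ± 0.13, adjusted p = 1.11e-08). Ptgs2, the inducible cyclooxygenase that starts prostaglandin synthesis, was at 18.6, 31.1 and 80.5 CPM under heme-albumin, 10.2, 14.4 and 22.6 CPM under hemeHpx and 8.44, 11.4 and 24.7 CPM in the control (log2 fold change -1.33 ± 0.24, adjusted p = 0.000301). The early response factors Nr4a3 and Klf4 were lower, at -0.86 and -0.52 (adjusted p = 0.000925 and 0.00821). Of 20 such factors 5 were lower and 1 higher, with a median of -0.12. The neutrophil attractant gene Cxcl2 was lower, at -1.21 (adjusted p = 0.0195), a call lost without code W4 (adjusted p = 0.0926).

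Adh7 and Ccno, of low level, were also among the 10 largest falls. Adh7, an alcohol dehydrogenase that oxidizes retinol, was at 1.33, 1.54 and 2.92 CPM under heme-albumin, 0.12, 0.412 and 0.987 CPM under hemeHpx and 0.155, 0.284 and 0.758 CPM in the control, with no overlap between the carriers (log2 fold change -1.83 ± 0.28, adjusted p = 3.49e-05). Ccno, a cyclin known from cells with many cilia, had overlapping ranges, 1.46 to 10.8 CPM under heme-albumin against 0.926 to 3.59 CPM under hemeHpx (log2 fold change -1.27 ± 0.34, adjusted p = 0.0085).

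Proteasome subunits, which degrade ubiquitin-tagged proteins, moved little but together. Of 33 genes 28 were lower with hemeHpx and none was higher, with a median of -0.23. Heme-albumin had raised 26 of them over the control (median 0.18), a count that was 14 without W3, 15 without W1 and 16 without M2. None was called between hemeHpx and the control in either direction (median -0.02), and 0 to 7 were called lower with any 1 code left out. Under the fit with the choroid plexus term 23 were lower, and 22 to 28 with any 1 code left out. Psmd11, a lid subunit, had levels of 122, 127 and 141 CPM under heme-albumin, 90.3, 99.5 and 108 CPM under hemeHpx and 90.4, 102 and 111 CPM in the control (log2 fold change -0.36 ± 0.04, adjusted p = 2.47e-07), without overlap. Psmd12, its neighbour in the lid, and Psmc2, an ATPase of the base, fell by 0.28 and 0.24 on the log2 scale. The catalytic subunit gene Psmb5 had -0.03 (adjusted p = 0.826).

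Genes of cholesterol synthesis and uptake had 12 of 21 members lower and 1 higher with hemeHpx, with a median of -0.21, against 0.19 for heme-albumin over the control, and the hemeHpx median over the control was -0.000323. Among those with the smallest p were Lss, lanosterol synthase (-0.21, adjusted p = 0.00102), and Cyp51, lanosterol demethylase (-0.43, adjusted p = 0.00239). In the choroid plexus fit the count of lower members was 8, and without code W4 it was 7. Of 4 tested targets of the aryl hydrocarbon receptor, 3 were lower, Cyp1b1, a monooxygenase, at -0.78 (adjusted p = 0.000254) and Tiparp, a feedback repressor of the receptor, at -0.35 (adjusted p = 6.8e-05). Of 20 p53 targets 6 were lower and 2 higher (1 without W4 and 1 with the choroid plexus term). The higher share was under the 13.9% of all genes. The lower targets were led by the death receptor gene Tnfrsf10b (-0.76, adjusted p = 4.28e-05) and Eda2r (-0.67, adjusted p = 6.8e-05). Cytosolic heat shock chaperones had 6 of 15 members lower and none higher, led by Chordc1 (-0.25, adjusted p = 0.00362) and Hsph1 (-0.26, adjusted p = 0.00369), and 3 were lower with the choroid plexus term. The stress-induced Hspa1a and Hspa1b, near-identical genes whose reads may be split, had 0.07 and -0.03 between the carriers (adjusted p = 0.822 and 0.916).

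Chaperones of the endoplasmic reticulum moved opposite to the stress genes above. Heme-albumin had lowered 13 of 18 (median -0.27), and 10 were higher with hemeHpx than with heme-albumin and none lower (median 0.15). Against the control 6 were still lower with hemeHpx, 0 after GC correction. With 1 code left out this count was 0 without M1, M3 or W3, 1 without M5, 2 without M4 and 3 without W5. Hspa5, the chaperone BiP, had levels of 461, 513 and 621 CPM under heme-albumin, 588, 638 and 669.9 CPM under hemeHpx and 649.6, 690.1 and 713 CPM in the control (log2 fold change 0.27 ± 0.04, adjusted p = 7.67e-05), with 9 of 10 pairs higher. Calr, calreticulin, was at 593, 697 and 822 CPM under heme-albumin, 798, 853 and 885 CPM under hemeHpx and 858, 948 and 1070.1 CPM in the control (log2 fold change 0.30 ± 0.05, adjusted p = 0.000107), with 10 of 10 pairs higher. Sdf2l1, a cofactor of BiP, did not overlap between the carriers (log2 fold change 0.70 ± 0.12, adjusted p = 0.000231). With the choroid plexus term 8 were higher. Of 7 metallothionein and zinc genes 3 were higher and 2 lower, the lower count being 1 without W4 and 1 with the choroid plexus term. Mt1, a small protein that holds zinc and copper, was at 465, 598 and 758 CPM under heme-albumin, 779.7, 818 and 1035 CPM under hemeHpx and 708, 855 and 935 CPM in the control, with no overlap between the carriers (log2 fold change 0.48 ± 0.08, adjusted p = 7.7e-05), and Mt2 rose by 0.39 (adjusted p = 0.00237). Slc30a10, a manganese exporter, rose by 0.52 (adjusted p = 0.00842).

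Genes of microglia, the resident macrophages of the brain, were lower than in the control with heme-albumin and not with hemeHpx. Of 14 tested markers of homeostatic microglia 10 were higher with hemeHpx than with heme-albumin and none was lower (median 0.95). The median over the control was -0.80 with heme-albumin, which lowered 10 of them, and -0.08 with hemeHpx, with none called. The summed level of the 16 listed markers ranged from 269 to 433 CPM with heme-albumin, from 357 to 707 CPM with hemeHpx and from 359 to 720.4 CPM in the control. With the choroid plexus term the count was 8 of 14 (median 0.56), and 8 to 11 with any 1 code left out. Gpr34, a receptor for lysophosphatidylserine, stood at 0.299, 0.631 and 1.07 CPM under heme-albumin, 1.28, 2.21 and 3.14 CPM under hemeHpx and 1.596, 2.197 and 4.29 CPM in the control. No heme-albumin library reached the lowest hemeHpx library (log2 fold change 1.79 ± 0.23, adjusted p = 2.72e-06).

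Olfml3, a secreted glycoprotein typical of microglia, did not overlap between the carriers either, at 47.4, 77.8 and 88.4 CPM under heme-albumin, 88.7, 109 and 127 CPM under hemeHpx and 77.4, 111 and 143 CPM in the control (log2 fold change 0.56 ± 0.11, adjusted p = 0.000958). Cx3cr1, the fractalkine receptor, was at 2.05, 3.12 and 6.09 CPM under heme-albumin, 3.14, 8.11 and 17.2 CPM under hemeHpx and 4.39, 8.88 and 19.8 CPM in the control (log2 fold change 1.22 ± 0.29, adjusted p = 0.00358), with overlapping ranges. Tmem119 rose by 1.07 (adjusted p = 0.00508). P2ry12, an ADP receptor that falls early in activation, had 0.22 (adjusted p = 0.196), and the microglial transcription factor gene Sall1 -0.22 (adjusted p = 0.124). Among markers of disease-associated microglia 11 of 16 were higher and none lower, led by Ch25h, cholesterol 25-hydroxylase (log2 fold change 1.29 ± 0.25, adjusted p = 0.000659), and the tetraspanin gene Cd9 (0.37, adjusted p = 0.00381). That count was 4 with 1 lower with the choroid plexus term, and 4 without M4 and 5 without W3 or W4.

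Border-associated macrophages, which sit at the meninges, vessels and choroid plexus, had 8 of 11 markers higher and 1 lower (median 0.70), with 5 higher with the choroid plexus term and 5 without W4. Ms4a6c had the smallest p (log2 fold change 1.29 ± 0.22, adjusted p = 0.000201). Stab1, a scavenger receptor, rose by 0.93 (adjusted p = 0.0037). Cd163, the receptor for haptoglobin-hemoglobin complexes, was at 1.32, 2.09 and 5.02 CPM under heme-albumin, 2.298, 3.81 and 5.81 CPM under hemeHpx and 1.29, 3.91 and 8.31 CPM in the control and rose by 0.72 (adjusted p = 0.0285), which was lost with the choroid plexus term (adjusted p = 0.0892) and without any of 5 codes. The member that went the other way was Clec4n, the fungal pattern receptor dectin-2, at 13.7, 15.98 and 27.8 CPM under heme-albumin, 7.303, 9.14 and 17.5 CPM under hemeHpx and 2.48, 4.81 and 9.55 CPM in the control (log2 fold change -0.85 ± 0.18, adjusted p = 0.00175), and with hemeHpx it was above the control (log2 fold change 0.90 ± 0.19, adjusted p = 0.0174), a call lost without code M1, M3 or W3 (adjusted p up to 0.0681). The hemopexin receptor gene Lrp1 had 0.15 between the carriers (adjusted p = 0.213), and the endogenous scavenger genes Hpx and Hp had -0.34 and 0.23 (adjusted p = 0.183 and 0.43).

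Several immune genes that microglia express rose with them. The chemokine gene Ccl4 was at 2.19, 3.99 and 6.72 CPM under heme-albumin, 6.34, 13.3 and 24.8 CPM under hemeHpx and 4.31, 9.03 and 20.8 CPM in the control (log2 fold change 1.77 ± 0.27, adjusted p = 3.96e-05). Ccl3, encoding a related chemokine, rose by 1.11 (adjusted p = 0.00194). Ccl12, a monocyte attractant, was at 1.17, 2.06 and 4.37 CPM under heme-albumin, 3.17, 6.14 and 10.4 CPM under hemeHpx and 2.76, 5.703 and 14.5 CPM in the control (log2 fold change 1.504 ± 0.29, adjusted p = 0.000623). Of 12 complement genes 5 were higher and none lower, including C4b (0.42, adjusted p = 0.000737), C5ar1, the receptor of the fragment C5a (1.05, adjusted p = 0.00191), and C1qb (0.96, adjusted p = 0.00568). Of 13 Toll-like receptors and partners 7 were higher, including Cd14 (0.65, adjusted p = 0.00883), Tlr7 (0.73, adjusted p = 0.0111) and Tlr1 (0.78, adjusted p = 0.0136). The calls of Tlr7 and Tlr1 were lost with the choroid plexus term (adjusted p = 0.0613 and 0.0781), that of Tlr7 also without code W4 (adjusted p = 0.057) and that of Tlr1 without W3 (adjusted p = 0.0532). With the choroid plexus level as a term 1 was called higher, and there were 2 without W4 and 3 without W3. Lysosomal genes had 10 of 18 members higher, Neu1, a sialidase (0.38, adjusted p = 0.00427), and the proton pump subunit Atp6v0d1 (0.22, adjusted p = 0.00764) among them. That count was 5 with the choroid plexus term, 4 without W4, 5 without W3 and 6 without M4. Gpr84, a fatty acid receptor of activated microglia, was at 1.02, 2.35 and 3.62 CPM under heme-albumin, 1.87, 2.84 and 14.1 CPM under hemeHpx and 1.66, 2.61 and 4.16 CPM in the control. Its rise (log2 fold change 0.75 ± 0.29, adjusted p = 0.0478) was lost with the choroid plexus term (adjusted p = 0.262) and without any of 7 codes (adjusted p up to 0.348). Tnfrsf1a, the TNF receptor, had -0.06 (adjusted p = 0.303). The inflammatory activation list as a whole had 6 members higher and 4 lower of 25, the lower share being close to the 14.5% of all genes. The higher count was 2 with the choroid plexus term, 2 without M4 and 3 without W3 or W4, and the lower count 2 without W4. Of 19 interferon-stimulated genes 2 were higher and 1 lower, shares under the 13.9% and 14.5% of all genes. The higher count was 0 with the term, 0 without M4, W3 or W4 and 5 without M2.

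Astrocyte genes were also higher with hemeHpx: 7 of 15 and none lower (median 0.31), 8 with the choroid plexus term and 6 to 8 with any 1 code left out. Aldoc, a glycolytic aldolase, was at 292, 368 and 443 CPM under heme-albumin, 467, 504 and 660.0 CPM under hemeHpx and 423, 496 and 600.5 CPM in the control, without overlap (log2 fold change 0.50 ± 0.08, adjusted p = 3.78e-05). Glul, glutamine synthetase, rose by 0.47 (adjusted p = 0.000515) and Aqp4, the water channel of astrocyte endfeet, by 0.43 (adjusted p = 0.000659). Gjb6, the gap junction protein connexin 30, rose by 1.49 (adjusted p = 0.00327). Oligodendrocyte markers had 7 of 16 higher and 2 lower, the lower share being close to the 14.5% of all genes. The lower ones were the lineage factors Olig1 and Olig2, and Olig2 (log2 fold change -0.45 ± 0.09, adjusted p = 0.00111) stood at 193, 249.9 and 287 CPM under heme-albumin, 138, 182 and 210.3 CPM under hemeHpx and 133, 181 and 212 CPM in the control. The higher ones, such as Aspa, aspartoacylase (0.58, adjusted p = 0.00225), and the myelin enzyme gene Cnp (0.34, adjusted p = 0.0175), belong to the mature cell. The call of Cnp was lost with the choroid plexus term (adjusted p = 0.0795) and without code W4 (adjusted p = 0.105). Under the fit with the choroid plexus term 1 member was higher and 1 lower. With 1 code left out the higher count was 1 without W4 and 2 without M4 or W3 and the lower count 1 without M3, M4 or W3.

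The 10 largest rises held further genes of glia and of other cells. Plin4, a protein of lipid droplets, was at 5.12, 6.57 and 12.96 CPM under heme-albumin, 18.7, 28.2 and 44.8 CPM under hemeHpx and 13.6, 17.8 and 41.2 CPM in the control. All hemeHpx libraries were above all heme-albumin libraries (log2 fold change 1.98 ± 0.21, adjusted p = 9.5e-08), and the log2 fold change against the control was 0.57 ± 0.20, adjusted p = 0.0564. Sfrp5, a secreted inhibitor of Wnt, was at 18.9, 32.1 and 71.7 CPM under heme-albumin, 55.4, 111 and 181 CPM under hemeHpx and 39.5, 64.8 and 177 CPM in the control (log2 fold change 1.63 ± 0.27, adjusted p = 0.000125). Agt, the angiotensinogen that astrocytes secrete, was at 3.65, 5.799 and 14.7 CPM under heme-albumin, 7.05, 18.7 and 41.8 CPM under hemeHpx and 5.19, 8.05 and 28.6 CPM in the control (log2 fold change 1.57 ± 0.35, adjusted p = 0.0024), and Etnppl, an enzyme of phosphoethanolamine breakdown found in astrocytes, at 0.804, 1.75 and 5.13 CPM under heme-albumin, 2.33, 5.303 and 12.3 CPM under hemeHpx and 2.44, 3.52 and 12.8 CPM in the control (log2 fold change 1.56 ± 0.34, adjusted p = 0.00181). Both were higher in 10 of 10 pairs, where at least 8 were required for a gene to be among these 10. Ucma, a secreted protein first described in cartilage, was at 0.219, 0.673 and 1.18 CPM under heme-albumin, 1.44, 1.93 and 3.52 CPM under hemeHpx and 1.26, 1.72 and 2.08 CPM in the control, without overlap (log2 fold change 1.4995 ± 0.19, adjusted p = 3.81e-06). Gdf10, a factor of the TGF-beta family, and Gpr101, an orphan receptor, were of low level and overlapped widely: 0.181 to 1.69 CPM under heme-albumin against 0.134 to 9.11 CPM under hemeHpx for Gdf10 (log2 fold change 2.2000 ± 0.64, adjusted p = 0.013), and 0 to 1.998 and 0.301 to 5.54 CPM for Gpr101 (log2 fold change 1.58 ± 0.58, adjusted p = 0.0398). Both lost their call with the choroid plexus term (adjusted p = 0.119 and 0.0885), Gdf10 without code W3 or W4 (adjusted p up to 0.0583) and Gpr101 without any of 6 codes (adjusted p up to 0.0956). The other 8 kept theirs in each case.

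A set of genes differed between the carriers without a call for heme-albumin against the control. It held 683 of the 15198 genes tested. These were called in both hemeHpx comparisons, with a mean of at least 1 CPM, and not between heme-albumin and control. The lack of a call there does not show that a gene was unchanged. The set also rests on calls of hemeHpx against the control, which over all genes were 1600, and 167 after GC correction. The genes of the set highest over the control were neuropeptide and secretory genes: Oxt (oxytocin), Trh (thyrotropin-releasing hormone), Scg2 (secretogranin II), Baiap3, which acts in the traffic of dense-core vesicles, and Vwa5b2. Scg2 was at 2.61, 15.4 and 31.6 CPM under heme-albumin, 4.38, 36.8 and 75.9 CPM under hemeHpx and 4.05, 9.97 and 33.1 CPM in the control (log2 fold change 1.28 ± 0.41, adjusted p = 0.0214). Against the control it was higher (1.43 ± 0.41, adjusted p = 0.0346), a call lost without code M1, M3, M4, W3 or W5 (adjusted p up to 0.126). For Oxt the levels were 0, 0.17 and 2.75 CPM under heme-albumin, 0.0582, 0.972 and 8.38 CPM under hemeHpx and 0, 0.0885 and 0.906 CPM in the control (log2 fold change 2.16 ± 0.78, adjusted p = 0.0386). Both ranges overlapped those of heme-albumin. Of these 5 genes Vwa5b2, at 1.103 to 3.26 CPM with hemeHpx and 0.512 to 1.36 CPM with heme-albumin (log2 fold change 1.14 ± 0.22, adjusted p = 0.000736), kept its calls with the choroid plexus term (adjusted p = 0.00207) and without any 1 code (adjusted p against the control up to 0.0457), while Oxt, Trh, Scg2 and Baiap3 lost it (adjusted p = 0.217, 0.098, 0.0908 and 0.095). Without code M1, M4 or W3 these 4 lost the call between the carriers too, Oxt and Trh also without M3 or W1 and Baiap3 without M5, W4 or W5 (adjusted p up to 0.129). Against the control Oxt and Trh lost theirs without 8 of 9 codes (adjusted p up to 0.11 and 0.156) and Baiap3 without code M1, M3, M4, W3 or W5 (adjusted p up to 0.113). In the lists, 11 of 21 neuropeptide genes were higher with hemeHpx (median 1.08), 2 with the choroid plexus term, and 10 of 18 neuron genes (median 0.65), 3 with the term. With 1 code left out the neuropeptide count was 2 without M1 or M4, 3 without W3, 5 without M3 or W4 and 6 without W1, and the neuron count 4 without M1 or W4 and 6 without W1. Examples were Crh, corticotropin-releasing hormone (1.699, adjusted p = 0.0104), Penk, proenkephalin (1.204, adjusted p = 0.0176), Eno2, neuron-specific enolase (0.68, adjusted p = 0.00104), and Gad1 and Slc32a1, which make and load GABA (0.64 and 0.84, adjusted p = 0.0108 and 0.012). Penk was not called with the choroid plexus term (adjusted p = 0.107) or without code W4 (adjusted p = 0.07). Against the control 6 of the 21 neuropeptide and 5 of the 18 neuron genes were higher with hemeHpx. After GC correction these counts were 1 and 1.

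Part of the mitosis and DNA replication genes were lower with hemeHpx than with heme-albumin. Of all 15198 genes tested, 903 were lower than the control with hemeHpx and 999 with heme-albumin. Against the control 10 of 22 mitosis and 7 of 24 DNA replication genes were lower with hemeHpx, and 0 and 0 with heme-albumin. After GC correction the hemeHpx counts were 0 and 0, with the choroid plexus term 16 and 10, and with both together 16 and 6. The mitosis count against the control was 0 without M1, M3, M4, M5 or W3, 3 without W4, 6 without W5 and 20 without M2, and the DNA replication count 0 without M1, M3 or W3, 1 without M4 or M5, 2 without W4, 3 without W5 and 13 without M2. Among the 5 lowest against the control in the set of 683 genes were H60b, a ligand of the NKG2D receptor, and the cell cycle genes Prr11, Esco2, which closes cohesin rings, and Kif18a, a mitotic kinesin. Kif18a was at 13.1, 19.2 and 31.3 CPM under heme-albumin, 7.202, 13.8 and 17.7 CPM under hemeHpx and 8.58, 20.5 and 34.6 CPM in the control (log2 fold change -0.55 ± 0.19, adjusted p = 0.0321). Esco2, Prr11 and H60b had log2 fold changes of -0.48, -0.48 and -0.70 (adjusted p = 0.043, 0.036 and 0.0441), and the ranges of the carriers overlapped for all 4 genes. None of these 4 was called with the choroid plexus term (adjusted p from 0.161 to 0.28) or without code M4, W3 or W4, and each was lost without 4 to 6 codes in all (adjusted p up to 0.212). In the mitosis list 13 of 22 genes were lower with hemeHpx (median -0.40), led by Kif20a (-0.43, adjusted p = 0.0213) and Bub1 (-0.45, adjusted p = 0.023), and in the DNA replication list 11 of 24 (median -0.26), led by Pole (-0.41, adjusted p = 0.0141) and Mcm2 (-0.37, adjusted p = 0.0148). Kif20a and Bub1 lost their calls with the choroid plexus term (adjusted p = 0.0975 and 0.141) and without M4 or W4, and Kif20a also without M3 or W3 (adjusted p up to 0.078). Mki67, the usual marker of cycling cells, had -0.38 (adjusted p = 0.0662). In the choroid plexus fit the counts were 0 and 1. Leaving out 1 code, the mitosis count was 0 without M4 or W4, 1 without M3 or W3, 5 without M5 and 6 without M1, and the DNA replication count 2 without M4, 4 without W3 or W4 and 7 without M1, M3 or M5.

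Markers of other cell types and of brain regions are read here against the 13.9% of all genes that were higher with hemeHpx. The summed neuropeptide level was 111 to 325 CPM with hemeHpx, 48.1 to 220.3 CPM with heme-albumin and 70.97 to 209 CPM in the control, and the summed mitosis level had medians of 929, 1261 and 1275 CPM. Of the choroid plexus genes themselves 1 of 12 was called, Aqp1, a water channel (1.29, adjusted p = 0.0334), a call lost without code M4, W3 or W4 (adjusted p up to 0.102), while 2 members were called without M2. The median of the list was 1.32, and the levels of Ttr ran from 0.1 to 1619 CPM within the hemeHpx group. The part of these markers in the other results was not tested beyond the fit with the choroid plexus term. Hypothalamus markers had 3 of 7 and striatum markers 5 of 12 higher, and none lower. With 1 code left out the hypothalamus count was 0 without M1, M3, M4, W1 or W3, and the striatum count 1 without W4 and 3 without M1, M3 or M4. Ependyma markers had 3 of 5, endothelial markers 3 of 14, and cortex and hippocampus markers 2 of 13 higher, the last close to the share of all genes. In the fit with the term these 3 counts were 0, 1 and 1. The ependyma count was 0 without M1, M4, W3 or W4, the endothelial count 0 without M3, M4, W3 or W4, and the cortex and hippocampus count 0 without W4 and 1 without M1, M3, M4 or W3. With that term hypothalamus and striatum had 0 and 2. Thalamus, cerebellum, midbrain and hindbrain, mural cell, meningeal fibroblast and oligodendrocyte precursor markers had no call in either direction. Of the cerebellum list 3 of 6 and of the midbrain and hindbrain list 2 of 14 genes were tested. All 8 mural cell genes (median 0.43) and all 10 meningeal fibroblast genes (median 0.26) had positive log2 fold changes. Among the mural cell genes 2 were called higher without W1 and 1 without M2 or M4. Of 20 targets of the hypoxia factor HIF 2 were higher and 2 lower, shares under the 13.9% and 14.5% of all genes. The lower count was 0 without M1, M3, M5, W4 or W5 and 1 without M4.

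**Figure D4:**
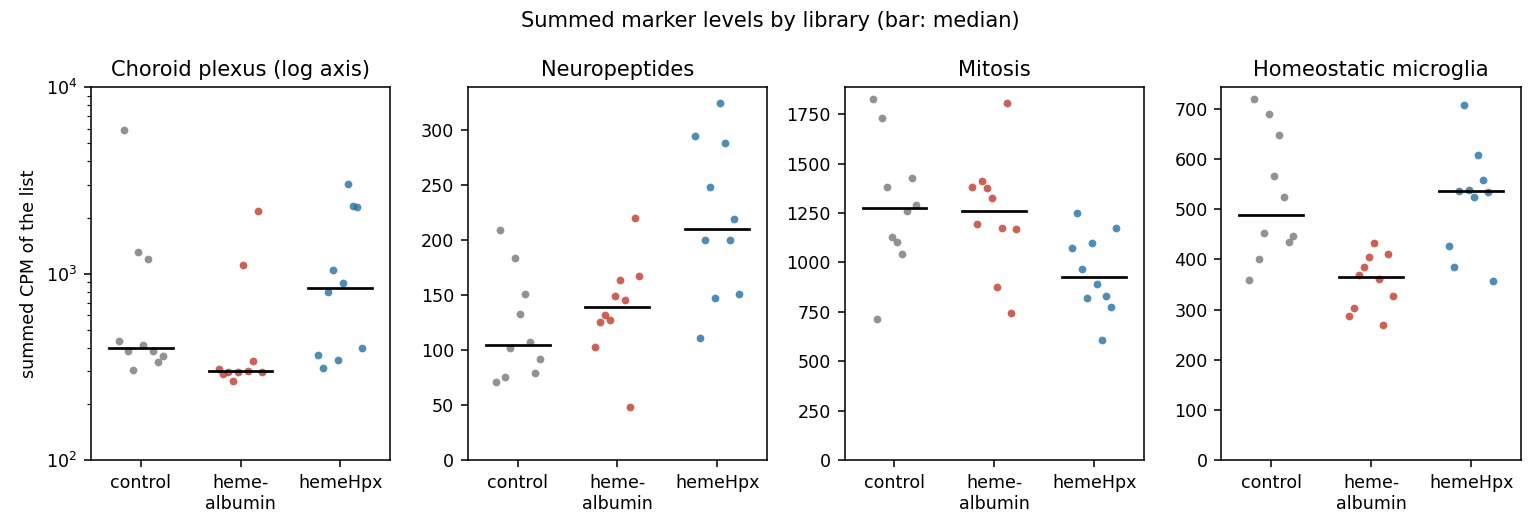
Summed CPM of 4 marker lists (y axes, the first logarithmic and the others from 0) in each library (points) with the median (bar) for the control, 200 µM heme-albumin and 200 µM hemeHpx, 10 libraries each. Choroid plexus levels fall into a low and a high set within every group, neuropeptide medians are highest and mitosis medians lowest with hemeHpx, and homeostatic microglia medians are 489, 365 and 536 CPM in that order of groups.

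Some heme-responsive genes stood apart from the control with hemeHpx and were not called between the carriers. Acod1, Il19, Kcnj9 and Sez6l were among the 5 with the largest change over the control, of those called at 400 µM in the same direction and not called between the carriers. Il19, a cytokine of the IL-10 family, was at 0.365, 1.801 and 5.24 CPM under heme-albumin, 0.368, 1.34 and 4.22 CPM under hemeHpx and 0, 0.358 and 0.932 CPM in the control, above the control with both carriers (log2 fold change 2.37 with heme-albumin and 1.95 with hemeHpx, adjusted p = 0.000623 and 0.023). The latter call was lost without code M1, M3 or W3 (adjusted p up to 0.0815), and Acod1, Kcnj9 and Sez6l lost theirs without 4 to 6 codes. Acod1, which makes itaconate in activated macrophages, had 1 hemeHpx library at 29.3 CPM and a median of 0.397 CPM, and its log2 fold change between the carriers of 1.74 turned to -1.46 without code M4 and -1.39 with DESeq2. For Sez6l, a neuronal membrane protein, the medians were 54.8 CPM with heme-albumin, 62.9 CPM with hemeHpx and 21.6 CPM in the control, and the carriers differed by 0.03 with a 95% interval of -0.47 to 0.53. Kcnj9, a potassium channel subunit, had 0.37 between the carriers (adjusted p = 0.361). After GC correction Il19 was the 1 of these 4 still called against the control (adjusted p = 0.0317, the others 0.0627 to 0.0757).

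**Figure D5:**
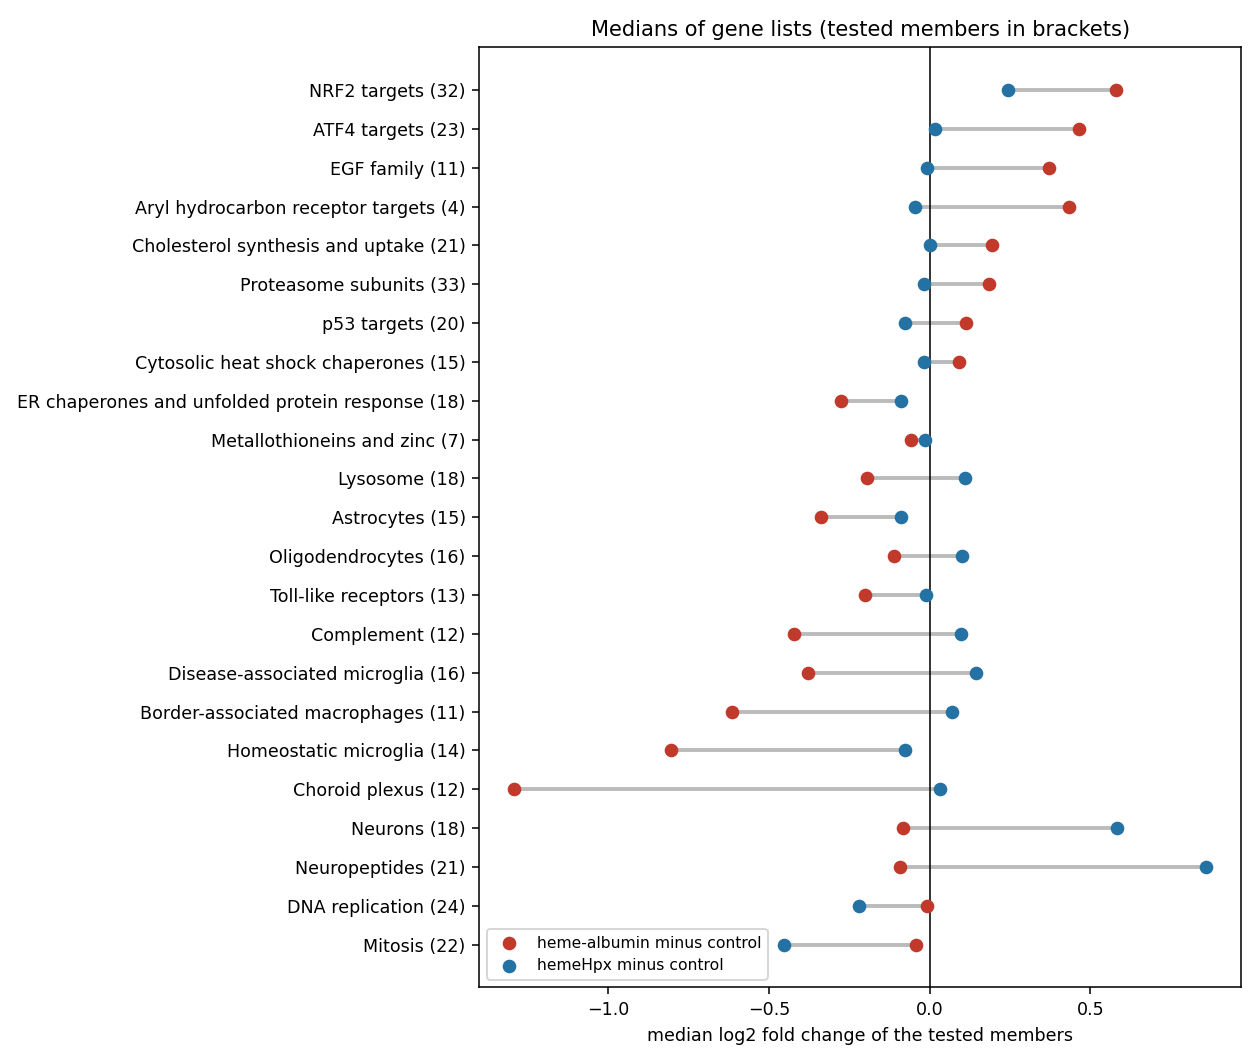
Median log2 fold change over the control (x axis) of the tested members of 23 gene lists (rows, number of members in brackets) with heme-albumin (red) and hemeHpx (blue), both against the same 10 control libraries, so the 2 points of a row are not independent. From the NRF2 targets to the microglia lists the blue points lie nearer 0 than the red ones, while for neurons, neuropeptides, DNA replication and mitosis the red points lie near 0 and the blue ones away from it.

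The first letter of the library names, M or W, matched the Y-linked genes: their summed level was at least 169 CPM in every M library and at most 0.0841 CPM in every W library. The difference between hemeHpx and heme-albumin was tested against this letter, with 5 libraries of each letter in each group. No gene of 15015 was called by edgeR's quasi-likelihood test, against 187 with an unadjusted p under 0.05, and none by DESeq2, with 198. Taken alone, the M libraries gave 253 called genes and the W libraries 242.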

How the data were processed

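The deposited files hold raw counts of reads per Ensembl gene, 1 file per library, which the authors made with featureCounts on GRCm39 per the submitters' processing notes; the aligner and the strand setting are not given in the sources used here. Libraries were grouped by their treatment labels. Genes passed edgeR's filterByExpr (smallest count 10, smallest total 15) and were tested with edgeR's quasi-likelihood test (edgeR 4.0.16, R 4.3.3, TMM scaling) in 1 fit over the 30 control, heme-albumin and hemeHpx libraries, with Benjamini-Hochberg adjustment over all genes tested and a threshold of 0.05. Errors of log2 fold changes (±) are standard errors. CPM are counts scaled to a library of 1000000 after TMM. Nothing in the sources says how many animals gave the libraries of a group. The Y-linked levels place tissue of different animals in the M and W libraries, but do not tell animals of the same letter apart. The p-values measure the spread between these libraries, which may in part be technical. No libraries agreed within sampling noise (lowest chi-square per degree of freedom between libraries of a group 3.39).

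Genes named were the 10 largest significant changes between the carriers in each direction (mean of at least 1 CPM and the same sign in at least 8 of 10 pairs), up to 3 members of each list with the smallest p and other members whose role or lack of a call is described, the genes the study names, the 5 largest heme responses not called between the carriers, and the 5 highest and 5 lowest genes called with hemeHpx but not with heme-albumin. Of the genes this took, 6 are not reported here. Members and lists were chosen with earlier results of these data known. Symbols came from GENCODE M21 on GRCm38 by Ensembl identifier (25600 of 25655 matched), as did GC content and length, corrected in 10 and 5 bins. Of the 133 named genes, 54 overlap another gene on either strand, and reads of such pairs may not be told apart. Alternatives were DESeq2 1.42.0, RLE scaling, other filters, 20 or 60 libraries, the replicate block (the name code), GC correction, each letter alone, each code left out and, added after the data were seen, the choroid plexus level. The test was run on simulated counts for 15198 genes, each drawn independently and 200 of them changed, where 4.02% of calls were false. These counts held no shared differences between libraries, such as those in choroid plexus RNA or with GC content. The share of false calls in the real data is therefore not known from them. Promoters were read from a RefSeq table.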

Additional observations from a re-analysis of the deposited data

Results flagged for a closer look

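For 35 of 399 sets of 10 libraries (133 named genes in 3 groups), 1 library stood apart from the other 9 by Dixon's 95% criterion, 8.77% of the sets. Chance gives about 1 in 20 for independent, normally distributed values. CPM need not be so distributed, and these genes share libraries and were picked with these data known. The 8.77% is therefore not an excess over chance. Values are in CPM, each followed by the value of the nearest other library of its group. HemeHpx replicate 4 stood apart for 5 genes: Acod1 at 29.3 against 0.756, Gpr84 at 14.1 against 4.12, Alas1 at 73.4 against 59.3, Cd14 at 104 against 48.3 and Clec4n at 17.5 against 10.8. Heme-albumin replicate 8 stood apart for 8 genes: H60b at 7.36 against 4.33, Kif18a at 31.3 against 22.5, Slc48a1 at 281 against 362 (lowest), Ncoa4 at 73.7 against 61.8, Cyp51 at 164 against 141, Psmd12 at 112 against 102, Aqp4 at 644 against 467 and Eno2 at 28.2 against 43.8 (lowest). Heme-albumin replicate 9 stood apart for 6 genes: Etnppl at 5.13 against 2.22, Oxt at 2.75 against 0.614, Trh at 3.996 against 1.95, Cd163 at 5.02 against 3.13, Cd14 at 44.8 against 32.4 and Ttr at 1092 against 449. Control replicate 2 stood apart for 6 genes: Plin4 at 41.2 against 25.1, Trh at 3.46 against 1.79, Hspa1a at 24.6 against 16.1, Tmem119 at 31.9 against 17.7, Aqp1 at 32.4 against 10.6 and Ttr at 3218 against 348. The other cases were Etnppl at 12.8 against 7.67 in control replicate 6, Adh7 at 2.92 against 1.896 in heme-albumin replicate 1, Ereg at 6.97 against 5.05 in control replicate 8, Fosl1 at 9.48 against 6.97 in control replicate 3, Ptgs2 at 24.7 against 16.7 in control replicate 8, Slc7a11 at 326 against 241 in hemeHpx replicate 10, Urod at 42.6 against 38.5 in hemeHpx replicate 7, Ncoa4 at 60.9 against 51.2 in hemeHpx replicate 8, Hspa1b at 29.1 against 18.95 in hemeHpx replicate 9 and Psmd11 at 141 against 131 in heme-albumin replicate 1. The summed choroid plexus level was 5900.1 CPM in control replicate 2, 2174 CPM in heme-albumin replicate 9 and 1043 CPM in hemeHpx replicate 4, which was also the deepest library at 44199060 counted reads. Without code M4, which takes out hemeHpx replicate 4 and its partners, the log2 fold change of Acod1 between the carriers was -1.46 instead of 1.74 and the adjusted p of Gpr84 was 0.348. A part of depth in the other values above was not tested.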

How the results depend on the processing

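Between hemeHpx and heme-albumin the 4317 called genes became 2447 (1233 higher and 1214 lower) with the choroid plexus term, 253 (108 and 145) in the M libraries alone and 242 (119 and 123) in the W libraries alone, where fewer libraries were tested. Between hemeHpx and control the 1600 genes became 916 without a filter on low counts, 2748 with the replicate block, 167 with GC correction, 699 with the choroid plexus term and GC correction, and 0 in the M and 0 in the W libraries alone. The share of higher genes among these was 43.6% at first and 54.5% with GC correction (91 higher and 76 lower). Between heme-albumin and control the 2004 genes became 3060 with the choroid plexus term and GC correction, 527 in the M and 144 in the W libraries. Of the genes raised at 400 µM, the 720 that were lower with hemeHpx became 131 in the M and 115 in the W libraries, 34 when chosen at 50 µM and 125 when only changes of at least 1.5-fold were taken. Of the genes lowered at 400 µM, the 583 that were higher became 85, 84, 1 and 247 in the same order. Except for the changes in number of libraries or genes, the cause of these moves was not tested. Leaving out the libraries of 1 code gave 2122 to 4833 genes between the carriers (988 to 2363 higher and 1134 to 2470 lower), 20 to 4119 between hemeHpx and control, 1208 to 2597 between heme-albumin and control, 588 to 705 raised genes that were lower and 416 to 562 lowered genes that were higher.

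Acod1 reversed between the carriers: its log2 fold change of 1.74 became -1.39 with DESeq2 and -1.46 without code M4, the range without any 1 code being -1.46 to 2.25. A further 7 named genes, none called between the carriers, changed sign around 0 in at least 1 alternative (Sez6l, Ftl1, Mgst1, Bach1, Hspa1a, Hspa1b and Hp). The libraries share a code without a stated meaning, and the deviations from the group means of the libraries in a pair correlated from -0.07 to 0.67, above 0.1 in 8 of 10 pairs and highest with their own code in 5 of 10. The replicate block gave 4759 genes between the carriers, and 5326 with GC correction, where hemeHpx against control gave 1090; 3 of 133 named genes, Gpr101, Trh and Gpr84, lost their call under the block (adjusted p = 0.0567, 0.0909 and 0.0995). With the choroid plexus term 21 of 133 lost and 3 gained a call. In simulated counts at these depths 74% of genes with a log2 change of 0.5 and 93% of those with 1 were called. Genes were drawn independently there, without the shared differences between libraries seen here.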
